A study of Mus musculus with 6 samples.

Results

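The genes described here mark microglia and the other macrophages of the brain. They are 35 genes chosen by name, and every probe set of the array annotated to exactly 1 of them was taken, which gave 54 probe sets of 45037 that were not controls, and 35 of 18193 singly named genes. Total RNA of whole brains was hybridised, 1 array per sample, from E18.5 mouse embryos, which are near term, on a C57/bl6 background: 3 wild-type embryos and 3 labelled Foxf2 mutant. The labels do not describe the mutant allele, the number of embryos behind each sample or any litters, and the p-values measure only the spread between these samples. Foxf2 codes for a transcription factor of the forkhead family that brain pericytes express, and the design asks how transcripts of the brain change with its mutation.

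Microglia are the resident macrophages of the brain parenchyma. They arise from yolk sac progenitors, enter the brain before birth and depend on the receptor Csf1r, on the transcription factors PU.1 (Spi1) and Irf8, and on TGF-beta signals. Border macrophages live in the meninges, the perivascular spaces and the choroid plexus, share the Csf1r programme and carry scavenger receptors such as Mrc1, Cd163 and Lyve1, while monocytes and macrophages that enter from blood add genes such as Lyz2 and Lgals3. The genes were therefore split into 5 microglial markers (Cx3cr1, P2ry12, Tmem119, Siglech and Gpr34), 8 genes of border or infiltrating macrophages (Mrc1, Lyz2, Cd163, Lyve1, F13a1, Pf4, Ms4a7 and Lgals3) and 22 genes shared by macrophages. In whole-brain RNA, more cells of a type and more RNA per cell cannot be told apart.

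Foxf2 was low in all 3 mutant arrays, at 8.06, 3.31 and 7.57 against 18.6, 24.4 and 13.8 in the wild type, too dim to be tested. The arrays had been scaled alike, yet the median signal was 24.3 to 25.5 on the mutant and 23.1 to 23.6 on the wild-type arrays. Mutant array 3 carried skeletal muscle transcripts, as the summed intensity of 5 muscle genes was 1139 there and 79.8 to 98.8 on the other arrays. Wild-type array 3 carried pituitary transcripts (summed intensity of 4 genes 1907), and mutant array 3 held some as well (266), against 38.3 to 63.6 on the other 4 arrays. Brain tissue itself was plain on every array, with the summed intensity of 4 neuronal genes between 8786 and 9805, and 1 mutant array, number 2, came from a male by its Y-linked signal.

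None of the genes passed the threshold. Of the 54 probe sets, 42 were bright enough to be tested, and 0 of these had an adjusted p under 0.05, against 0.389% of all 27022 tested probe sets. The lowest adjusted p was 0.143 (limma). At an unadjusted p under 0.05, 5 of the 42 (11.9%) were higher in the mutant, where 7.76% of all tested probe sets were, and 0 were lower, where 5.79% were. The groups did not overlap in 6 of the 42 (14.3%), all higher in the mutant, against 10.9% of all tested probe sets. Lower without overlap were 0 of 42 and 9.38% of all.

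With each gene read by its brightest probe set, 31 of the 35 genes were above the filter. The log2 difference, mutant minus wild type with an offset of 16, was above 0 in 26 and below 0 in 5, and its median was 0.11. Over all 12573 genes it was above 0 in 48.3%, with a median of -0.01. The class medians ran from 0.04 for the shared genes to 0.12 for the microglial and 0.27 for the border or infiltrating genes, none of which carries a test. Because the mutant arrays had the higher medians, centring each array on its median moved the split of the 31 genes to 19 above and 12 below 0, and that of all genes to 35.4% above 0.

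**Figure D1:**
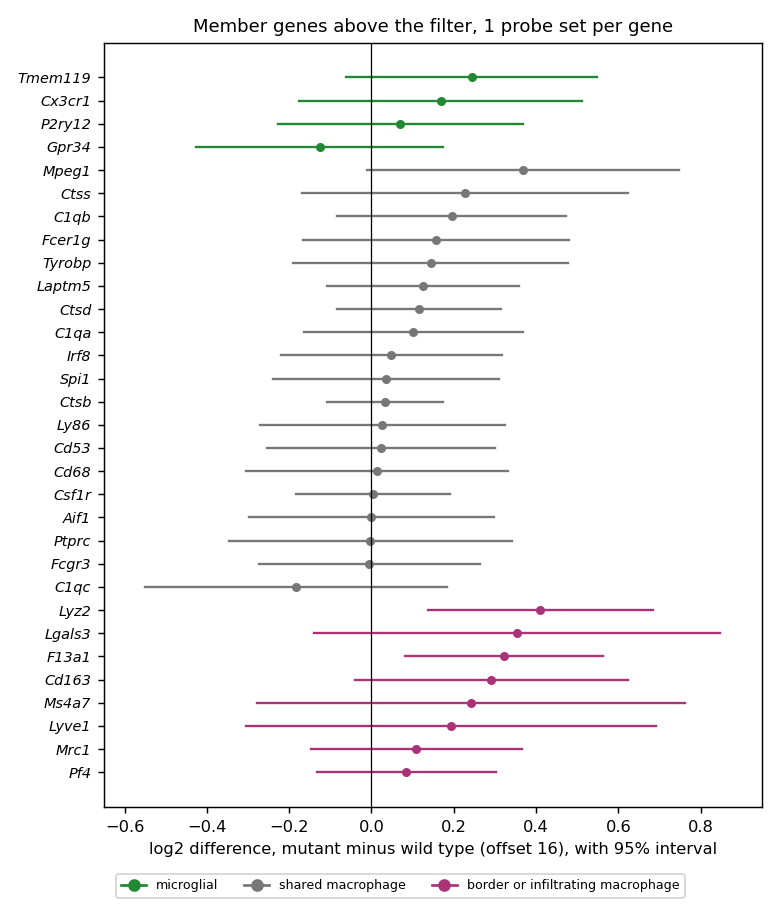
Log2 difference of mutant minus wild-type intensity (offset 16, horizontal axis) for the 31 genes above the filter, with the 95% interval of the limma fit as bars, coloured by class. The intervals of Lyz2 and F13a1 alone lie wholly above 0, and neither gene passed after adjustment.

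Among the microglial markers no direction held for the class. Cx3cr1, the fractalkine receptor, read 38.7, 41.9 and 56.9 in the wild type and 50.6, 45.7 and 63.7 in the mutant on its brighter probe set, so the groups overlapped (log2 difference 0.17, SE 0.15). Its dimmer probe set gave 17.8, 16.9 and 17.9 against 20.3, 19.5 and 26.1, without overlap, and the same difference of 0.17 (limma adjusted p = 0.596). P2ry12, the ADP receptor that guides microglial processes, read 43.2, 57.7 and 42.8 against 45.6, 52.3 and 54.6, with a difference of 0.07. Its mutant values all lay inside the wild-type range.

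Tmem119, a membrane protein of mature microglia, was dim, at 16.4, 21.2 and 13.6 in the wild type and 22.8, 23.6 and 22.5 in the mutant. All 3 mutant arrays were higher, by 0.24 ± 0.13 (SE) on the log2 scale, with a limma adjusted p of 0.470. Gpr34, a receptor for lysophosphatidylserine, went the other way, from 18.7, 22.7 and 17.5 to 13.7, 17.5 and 18.8 (-0.13, adjusted p = 0.728 by limma). Siglech, a sialic acid-binding lectin, was below the filter, at 3.95 to 10.2 in the wild type and 4.31 to 13.4 in the mutant. The class median of 0.12 was 0.05 without mutant array 3 and 0.05 without wild-type array 1.

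None of the tested regulators and surface receptors that macrophages share passed the threshold. Spi1, which encodes PU.1, read 12.9, 13.8 and 16.1 in the wild type and 16.6, 14.7 and 13.8 in the mutant. Irf8, its partner factor, read 15.4, 14.5 and 13.1 against 15.8, 14.0 and 16.2. Their log2 differences were 0.04 and 0.05, and both turned negative with quantile normalization or median centring.

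Csf1r, the receptor that microglia need for survival, had 3 probe sets. The brightest read 313, 350 and 304 in the wild type and 320, 349 and 301 in the mutant. Its log2 difference was 0.00, with a 95% interval from -0.18 to 0.19. The others differed by 0.18 and 0.14, with overlapping groups in both. Ptprc, the leukocyte phosphatase CD45, read 15.0, 23.9 and 14.9 against 18.9, 20.2 and 14.1, a difference of -0.00. Aif1, the actin-bundling protein Iba1, read 14.8, 18.4 and 14.5 against 15.3, 19.1 and 13.5, also -0.00.

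Itgam, the integrin CD11b, was below the filter and lower in all 3 mutant arrays, at 6.33, 4.62 and 0.558 against 8.0, 7.14 and 8.36. The endotoxin co-receptor Cd14 was below it too and went the other way, at 17.1, 7.62 and 17.6 in the mutant against 8.99, 3.84 and 8.58 in the wild type. The groups overlapped in Cd14 only through mutant array 2. Trem2, a lipid receptor of microglia, was near the floor of the array on both probe sets, which differed in sign (-0.31 and 0.32). Neither Itgam, Cd14 nor Trem2 was tested at this signal.

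The adaptor and Fc receptor genes overlapped between the groups. Tyrobp, the signalling adaptor of Trem2, read 64.6, 87.1 and 63.6 in the wild type and 64.9, 85.8 and 92.3 in the mutant (log2 difference 0.14). Fcer1g, the common gamma chain of Fc receptors, read 33.1, 42.5 and 39.1 against 36.6, 43.7 and 53.6 (0.16). Fcgr3, a low-affinity IgG receptor, differed by -0.01.

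The 3 chains of complement C1q, which in brain is made chiefly by microglia and macrophages and tags synapses, did not differ in a common direction. C1qa read 68.9, 74.1 and 68.6 in the wild type and 64.1, 86.4 and 81.6 in the mutant, a log2 difference of 0.10. C1qc read 52.8, 87.2 and 73.3 against 52.8, 57.1 and 70.1, a difference of -0.18. The mutant arrays thus lay on either side of the wild type in C1qa and within its range in C1qc.

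C1qb had the lowest adjusted p of all the genes, but only on an _x_at probe set, a kind whose probes can match other transcripts. That probe set read 55.9, 59.9 and 68.6 in the wild type and 88.3, 80.7 and 101 in the mutant, without overlap (log2 difference 0.45 ± 0.11 (SE), limma adjusted p = 0.143). A further _x_at probe set read 30.8, 64.5 and 49.0 against 64.4, 92.1 and 86.3, a difference of 0.62 (limma adjusted p = 0.233). The groups met there between 64.4 and 64.5. The brightest C1qb probe set, a plain _at, gave 76.1, 106 and 86.4 against 99.9, 96.8 and 116, with overlap and a difference of 0.20.

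Laptm5, a lysosomal membrane protein of blood cells, also differed between its probe sets, though not by the same suffixes. On an _s_at probe set it read 29.6, 23.2 and 24.2 in the wild type and 33.4, 42.5 and 53.3 in the mutant, without overlap (0.49 ± 0.15 (SE), limma adjusted p = 0.223). Its brightest probe set, here itself an _x_at, read 56.2, 66.9 and 62.1 against 66.7, 67.8 and 71.5, a difference of 0.13. Another tested one differed by 0.07. The groups thus separated on 1 of 3 tested probe sets. Below the filter, 1447742_at was also higher in the mutant without overlap, while 1459841_x_at overlapped.

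**Figure D2:**
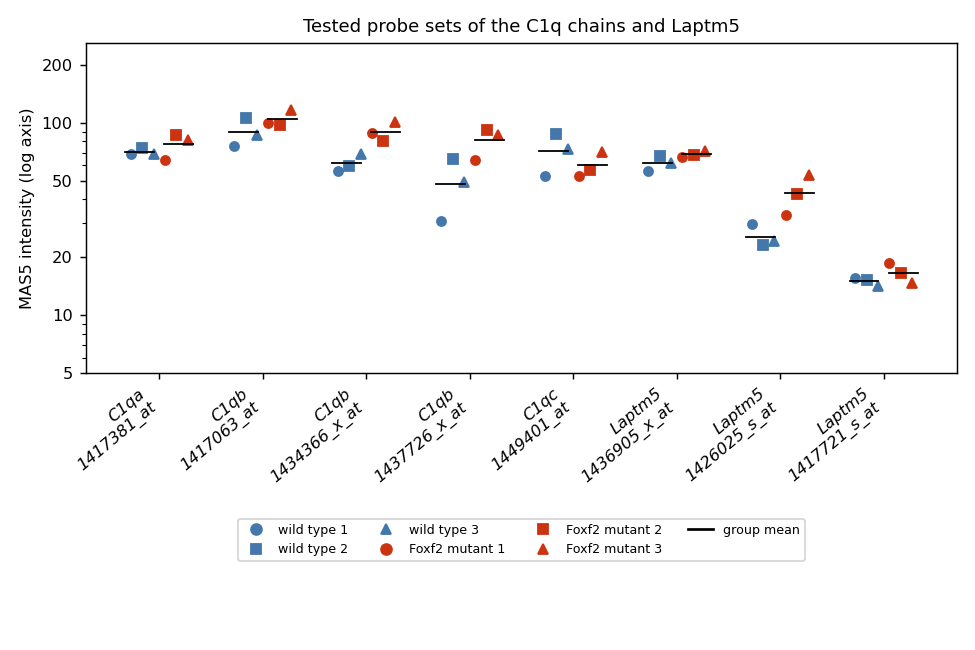
MAS5 intensity (log axis) of the 8 tested probe sets of C1qa, C1qb, C1qc and Laptm5, with 1 point per array and black lines at the group means. The groups separate only in C1qb 1434366_x_at and Laptm5 1426025_s_at, while the brightest probe set of each gene overlaps.

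Of the lysosomal proteases, Ctsb and Ctsd are made by neurons and other brain cells as well. The brightest Ctsb probe set read 874, 961 and 866 in the wild type and 909, 918 and 936 in the mutant, and the 4 tested Ctsb probe sets differed by -0.06 to 0.04. Ctsd read 271, 319 and 259 against 290, 313 and 317 (0.12). Ctss, the cathepsin more restricted to myeloid cells, read 131, 178 and 171 against 141, 240 and 195 (0.23), and its mutant array 1 lay below 2 of the wild-type arrays.

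Mpeg1, a pore-forming protein of macrophages, had the largest difference among the shared genes above the filter. It read 33.6, 58.9 and 40.2 in the wild type and 51.6, 63.9 and 67.2 in the mutant (0.37, limma adjusted p = 0.382), and only wild-type array 2 overlapped the mutant. Cd68, a lysosomal glycoprotein of phagocytes, differed by 0.01, the tetraspanin gene Cd53 by 0.02 and Ly86, the partner of an endotoxin receptor homologue, by 0.03. The 19 shared genes above the filter had 15 differences above and 4 below 0, where 48.3% of all genes were above 0. With quantile normalization 11 were above and 8 below 0, and with median centring 8 were above and 11 below. The class median of 0.04 was 0.12 without wild-type array 2, 0.01 without wild-type array 1, 0.07 without mutant array 1 and 0.06 without mutant array 3.

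The 8 genes of border or infiltrating macrophages all read higher in the mutant mean, 2 of them without overlap. Of all 12573 genes above the filter, 48.3% had a difference above 0 and 1374 were higher without overlap. Lyz2, the lysozyme of monocytes and macrophages, read 22.9, 22.3 and 23.7 in the wild type and 33.5, 35.2 and 38.8 in the mutant. The means were 23.0 ± 0.737 and 35.8 ± 2.73 (SD, n = 3 each). On the log2 scale they differed by 0.41 ± 0.12 (SE), and the adjusted p was 0.196 by limma over all probe sets. The gap between the groups was wider than the spread within either, and with any single array left out the difference stayed between 0.37 and 0.44. Lyz1, a near-identical copy, could share signal with this probe set.

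F13a1, the A chain of coagulation factor XIII, is a marker of border and tissue macrophages. It read 141, 131 and 142 in the wild type and 181, 150 and 201 in the mutant, without overlap, a difference of 0.32 ± 0.11 (SE) with a limma adjusted p of 0.244. Cd163, the scavenger receptor for haemoglobin bound to haptoglobin, read 16.1, 16.3 and 18.3 against 25.6, 18.1 and 30.0, so that mutant array 2 fell just inside the wild-type range (0.29, limma adjusted p = 0.428). In both genes mutant array 2 was the lowest of the mutant arrays and array 3 the highest.

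Mrc1, the mannose receptor, read 114, 101 and 108 in the wild type and 127, 98.0 and 129 in the mutant, a log2 difference of 0.11. Its mutant array 2 was below every wild-type array. Lyve1, a hyaluronan receptor of perivascular macrophages and lymphatic vessels, read 28.7, 49.5 and 40.6 against 36.5, 37.9 and 71.3, a difference of 0.19 that turned to -0.05 without mutant array 3. Pf4, a chemokine of platelets and border macrophages, read 133, 164 and 167 against 169, 160 and 164, a difference of 0.08. Only wild-type array 1 stood apart there.

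Ms4a7, a membrane protein of border and blood-derived macrophages, read 7.27, 27.6 and 16.2 in the wild type and 18.4, 18.2 and 29.8 in the mutant (0.24). Lgals3, the lectin galectin-3 of activated and infiltrating macrophages, read 12.7, 23.9 and 14.2 against 14.4, 29.9 and 35.6 (0.35, limma adjusted p = 0.518). The groups overlapped in both, and array 3 was the highest mutant array in both.

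**Figure D3:**
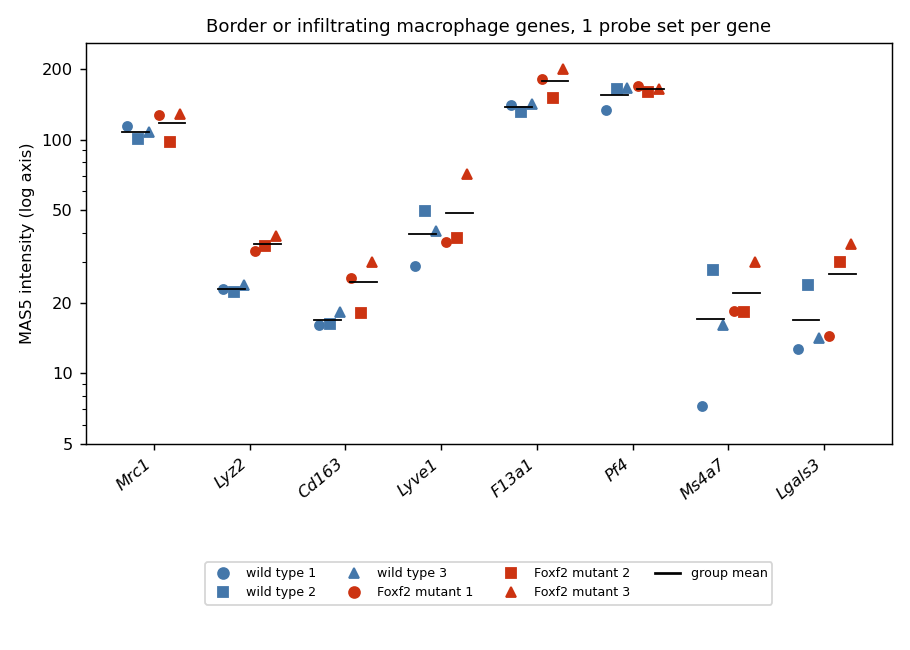
MAS5 intensity (log axis) of the 8 border or infiltrating macrophage genes on each of the 6 arrays, with black lines at the group means. Lyz2 and F13a1 separate the groups, and mutant array 3 is the highest of all arrays in Mrc1, Lyz2, Cd163, Lyve1, F13a1, Ms4a7 and Lgals3.

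Mutant array 3, the array with muscle and some pituitary transcripts, had the highest border signal. Relative to the wild-type mean of each gene, the median of the 8 genes was 0.49 on mutant array 3, 0.17 on array 1 and 0.08 on array 2, and -0.11, 0.03 and 0.03 on the wild-type arrays. Without mutant array 3 the class median was 0.15, with 7 of 8 genes above 0, and without wild-type array 3 as well it was 0.14. Summed intensities of the 8 genes were 476, 535 and 530 in the wild type and 606, 548 and 700 in the mutant, so mutant arrays 1 and 2 also lay above every wild-type array. The part of the muscle and pituitary carry-over in these values was not tested.

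Lyz2 and F13a1 also read higher on the arrays without muscle signal. Leaving out mutant array 3 gave log2 differences of 0.37 and 0.23, with limma adjusted p of 0.411 and 0.470. The microglial class had medians of 0.04, 0.06 and 0.19 on the mutant arrays and -0.07, 0.15 and -0.10 on the wild-type arrays, and the shared class -0.03, 0.11 and 0.10 against -0.09, 0.12 and -0.03. The groups overlapped in both classes. That the border class differed more than the microglial class was not tested.

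**Figure D4:**
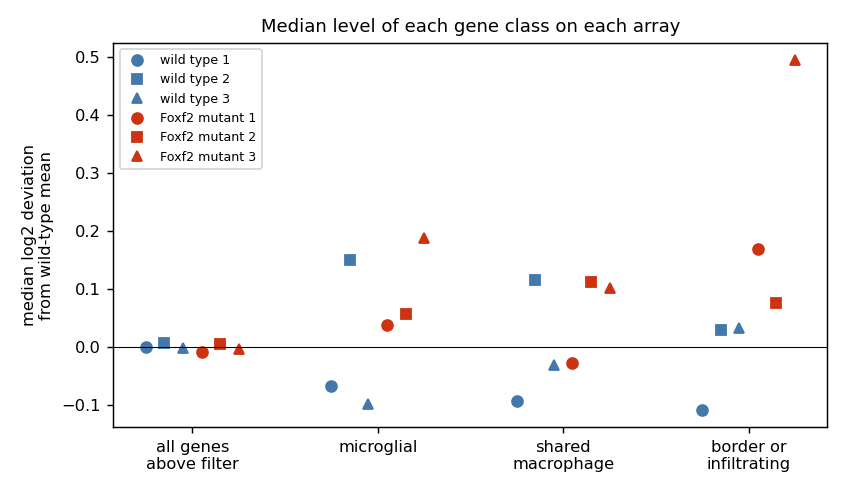
Median log2 deviation (offset 16) from each gene's wild-type mean, on each array, for all genes above the filter and for the 4 microglial, 19 shared and 8 border or infiltrating genes. The border genes of mutant array 3 stand at 0.49, all genes lie near 0 on every array, and the microglial and shared classes overlap between the groups.

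Signals of other cell types moved alongside on some arrays. The summed intensity of 5 mast cell genes was 281 and 262 on mutant arrays 2 and 3, while mutant array 1 gave 186 and the wild-type arrays 183 to 227. Most of each sum was Kit, which neurons express as well, at 148 to 187 in the mutant and 160 to 180 in the wild type. The summed intensity of 9 monocyte and granulocyte genes was 105 to 138 in the mutant and 66.5 to 83.7 in the wild type. Only 2 of the 9 were bright enough to be tested, and the monocyte receptor Ccr2 stayed below 9 on all its probe sets. Lymphocyte genes were all below the filter. Meningeal fibroblast genes summed to 1881, 1557 and 1985 in the mutant and 1541 to 1751 in the wild type, and endothelial genes to 518 to 592 against 693 to 719. The endothelial genes did not move together. Cldn5, Kdr and Tek had log2 differences of -0.43, -0.41 and -0.26, while Pecam1, Cdh5 and Tie1 differed by 0.02, 0.29 and -0.00. The part of these cells in the macrophage values was not tested.

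Further genes of the same cells gave no call either. Of 5 further microglia-enriched genes above the filter, 3 read above and 2 below 0, with a median of 0.05. Olfml3, a secreted protein enriched in microglia, read 56.8, 86.3 and 52.2 in the wild type and 33.6, 48.8 and 31.9 in the mutant. It was lower in all 3 mutant arrays (-0.57 ± 0.18 (SE), limma adjusted p = 0.230). This is opposite to Tmem119 and Cx3cr1 in the same brains. Crybb1 had a difference of 0.15.

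Of 5 further border macrophage genes above the filter, 4 read above 0, with a median of 0.09. Stab1 read below 0, at -0.07. Without wild-type array 3, 2 of 5 read above 0 and the median was -0.03. Without mutant array 3 as well, 2 of 5 again read above 0, with a median of -0.02. Maf, a transcription factor of macrophages that neurons and lens also use, read 232, 239 and 262 against 303, 290 and 358 on its brightest probe set (0.35, limma adjusted p = 0.159), while its 5 other tested probe sets differed by -0.06 to 0.14. The folate receptor gene Folr2 differed by 0.10. The difference of Maf thus stood on a single probe set.

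None of the genes for signals that reach microglia passed the threshold. Of 7 tested ligands and regulators, 5 read above 0, with a median of 0.12. Csf1 and Il34, the ligands of Csf1r, differed by -0.08 and 0.11, and Cx3cl1, the ligand of Cx3cr1, by -0.02. The largest difference was that of Tgfbr2, a TGF-beta receptor, at 0.26, followed by its ligand Tgfb1 at 0.22, neither past the threshold.

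Of the genes listed for Tyrobp and Csf1r signalling, all 9 tested read above 0 on their brightest probe set, where 48.3% of all genes did. Their median was 0.22, and 0 passed. Sirpa stood at 0.01 on that probe set and at -0.03 and -0.10 on its other tested ones. Hcls1, below the filter, was at -0.13. Ptpn6, the phosphatase SHP-1, read 13.6, 19.1 and 20.7 in the wild type and 27.7, 30.9 and 33.7 in the mutant (0.47, limma adjusted p = 0.196), on an _x_at probe set. Vav1, a signalling protein of blood cells, read 11.5, 9.08 and 10.3 against 18.1, 15.8 and 18.9 (0.36, limma adjusted p = 0.247). With median centring 7 of the 9 stayed above 0 and the median was 0.17, while without mutant array 3 it was 0.12. Of 4 complement genes outside C1q, 3 read above 0, with Cd59a at 0.25 and the C3a receptor gene C3ar1 at 0.23. The other tested C3ar1 probe set differed by 0.10 with overlapping groups, and C2 read below 0, at -0.10.

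PU.1 binds purine-rich sites with the core GAGGAA, and the windows upstream of 4 genes are shown because these genes hold all 5 tested probe sets with an unadjusted p under 0.05. Each window covers the 250 bases before the annotated start in RefSeq (GRCm38.p6), 5′ to 3′ on the strand of the gene, with GAGGAA or its reverse complement TTCCTC in capitals. They are C1qb at chr4:136886201-136886450 (minus strand), Laptm5 at chr4:130913066-130913315 (plus strand), F13a1 at chr13:37050245-37050494 (minus strand) and Lyz2 at chr10:117282273-117282522 (minus strand).
C1qb: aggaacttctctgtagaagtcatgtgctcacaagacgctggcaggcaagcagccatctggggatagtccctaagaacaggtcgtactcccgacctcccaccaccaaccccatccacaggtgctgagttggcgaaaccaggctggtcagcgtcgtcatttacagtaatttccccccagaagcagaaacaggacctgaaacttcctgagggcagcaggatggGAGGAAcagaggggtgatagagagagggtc
Laptm5: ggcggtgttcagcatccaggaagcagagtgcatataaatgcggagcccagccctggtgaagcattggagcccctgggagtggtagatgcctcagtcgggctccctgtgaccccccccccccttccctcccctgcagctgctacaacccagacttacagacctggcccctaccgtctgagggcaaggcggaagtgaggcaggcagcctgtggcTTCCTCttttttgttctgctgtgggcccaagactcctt
F13a1: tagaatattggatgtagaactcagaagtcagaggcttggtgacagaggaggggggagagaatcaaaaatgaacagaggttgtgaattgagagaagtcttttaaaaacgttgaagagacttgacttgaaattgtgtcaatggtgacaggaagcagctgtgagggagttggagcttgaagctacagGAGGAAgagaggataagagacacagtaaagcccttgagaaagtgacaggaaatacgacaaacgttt
Lyz2: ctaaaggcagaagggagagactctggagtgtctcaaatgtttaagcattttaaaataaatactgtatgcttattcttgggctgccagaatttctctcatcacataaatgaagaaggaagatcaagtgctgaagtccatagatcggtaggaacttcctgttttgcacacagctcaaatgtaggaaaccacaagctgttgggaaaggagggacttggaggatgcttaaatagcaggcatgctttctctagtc

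The hexamer stands once in the windows of C1qb, Laptm5 and F13a1 and not in that of Lyz2. Another F13a1 start, nearer the gene body, has 0 matches. RefSeq windows were used for 26 of the 35 genes, 31 windows in all. Of these, 15 (48.4%) held the hexamer on either strand, against 23.3% of all 32851 windows. Members' windows on a single chromosome were left out of the count, while the windows of all genes kept that chromosome. Csf1r and Cd14 are among the members without a window here, so the shares do not rest on the same chromosomes. By class these were 12 of 19 windows of shared genes, 3 of 9 of border or infiltrating genes and 0 of 3 of microglial genes. Windows rather than genes were counted, and the Fcgr3 windows, each with 1 match, overlap almost wholly. Only 3 of the 5 microglial genes had a window, too few to compare the classes. The longer forms GAGGAAG and AGAGGAAG, searched as well and overlapping the hexamer, were in 29% and 9.68% of the members' windows and 10.6% and 3.67% of all. The shorter GGAA was in 93.4% of all windows and in 31 of 31 here, and TATAAA in 12.4% and in 4 of 31. A match is a description of letters, not a bound site.

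The class medians were recomputed under every alternative setting. The border median was the highest of the 3 classes in all settings but the filter at the 60th percentile, where only 3 border genes remained and their median was 0.11. It ran from 0.11 to 0.42, where the offset of 1 gave the highest value and the 60th percentile filter the lowest, and the offset of 64 gave 0.12. The shared median crossed 0 with median centring, at -0.02.

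**Figure D5:**
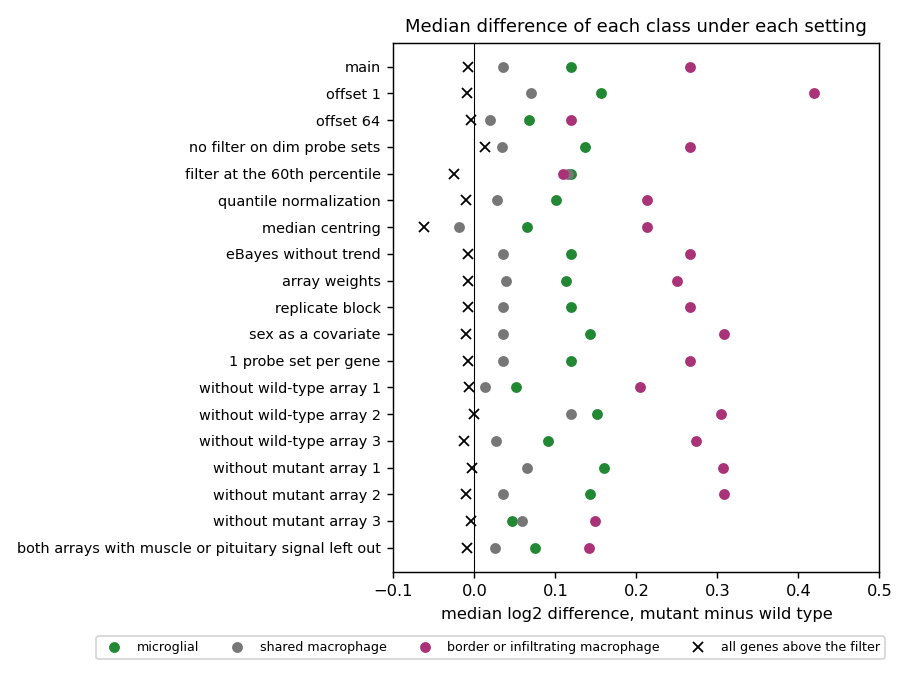
Median log2 difference (mutant minus wild type, horizontal axis) of each class and of all genes above the filter, under the main setting and each alternative (vertical axis). The border class runs from 0.11 to 0.42, lowest with the 60th percentile filter and highest with an offset of 1.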

How the data were processed

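Total RNA of whole brains was measured on 6 Affymetrix arrays. The deposited intensities are linear values per probe set made by the authors with MAS5, per the submitters' processing notes, whose version is not given in the sources used here. The mean of each array without its lowest and highest 2% of probe sets was 100, so the values were taken as already scaled. Gene names came from the platform annotation, where 34945 probe sets had 1 gene, 932 had several and 9160 had none listed.

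Values were analysed as log2(value + 16) with limma 3.58.1 in R 4.3.3 (lmFit, eBayes with a mean-variance trend, two-sided) on 45037 probe sets. This scale shrinks the differences of dim genes. P-values were adjusted by Benjamini-Hochberg over 27022 probe sets whose mean log2 value reached the 40th percentile, an intensity of about 13.2. Adjusted values under 0.05 passed. A gene is read by its probe set with the highest mean unless another is named. The fit was tested on simulated data. The number of arrays limits the precision.

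The members, their classes and the 15 other gene lists were chosen with earlier results of these data known. By rule any member could be named, with values per array for members at an unadjusted p under 0.05, without overlap, with probe sets that disagree or among the brightest of a class. Other lists gave their 2 largest differences. Values per array of the remaining members were added after they were seen. So were Csf1, Il34, Cx3cl1, Tgfb1, Ltf, Kit, Stab1, Syt1, Tubb3, C2 and other genes outside the 2 largest of a list.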

Additional observations from a re-analysis of the deposited data

How the results depend on the processing

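No member passed the threshold under any alternative, and the lowest adjusted p was 0.0752 (limma, C1qb 1437726_x_at, replicate block). The count over all tested probe sets was 105, and became 181 (offset 1), 64 (offset 64), 52 (no filter), 167 (filter at the 60th percentile), 56 (median centring), 220 (replicate block), 13 (1 probe set per gene) and 0 without the variance trend, with sex as a covariate or without both wild-type array 3 and mutant array 3. The causes were not tested. Leaving out 1 array at a time gave 0 to 34 over all probe sets, 0 to 0 among members, and class medians from 0.05 to 0.16 (microglial), 0.01 to 0.12 (shared) and 0.15 to 0.31 (border or infiltrating). Same-numbered arrays correlated at 0.19, 0.13 and 0.09 in their deviations from the group means. Each array correlated best with its own number, but 1 of the 3 values was under the 0.1 required here of every pair and the labels name no shared source, so the numbers were not taken as pairs, and the replicate block changed no member's call. With 1 mutant array from a male, the covariate for sex leaves that array without weight in the comparison.

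Direction changed for these members. With an offset of 1, the log2 difference changed sign to 0.0024 for Ptprc. With an offset of 64, the log2 difference changed sign to 0.00036 for Aif1. With quantile normalization, the log2 difference changed sign to -0.026 for Irf8, -0.020 for Ctsb (1417491_at), -0.038 for Spi1, -0.0026 for Cd53, -0.023 for Cd68. With median centring, the log2 difference changed sign to -0.0061 for Irf8, -0.021 for Ctsb (1417490_at), -0.052 for Ctsb (1417491_at), -0.019 for Spi1, -0.051 for Csf1r (1419872_at), -0.028 for Ly86, -0.032 for Cd53, -0.018 for Ctsb (1448732_at), -0.041 for Cd68. With array weights, the log2 difference changed sign to -0.016 for Ctsb (1417491_at), 0.0012 for Aif1, -0.00035 for Cd68. With sex as a covariate, the log2 difference changed sign to -0.050 for Csf1r (1419872_at), -0.10 for Ly86, -0.0078 for Cd53, 0.0076 for Fcgr3. Without both wild-type array 3 and mutant array 3, a setting chosen after seeing the data, the log2 difference changed sign to -0.0048 for Ctsb (1417490_at), -0.20 for Ctsb (1417491_at), 0.025 for Aif1, 0.015 for Ptprc, -0.024 for Lyve1 (1429379_at), -0.026 for P2ry12, -0.010 for Ctsb (1448732_at), -0.10 for Cd68, -0.0068 for Tyrobp. The cause was not tested. With 1 array left out, the differences that changed sign ran, by gene, as follows: Csf1r (1419872_at) from -0.050 to 0.061, Ly86 from -0.10 to 0.10, Cd53 from -0.036 to 0.077, Fcgr3 from -0.058 to 0.035, Ctsb (1448732_at) from -0.027 to 0.14, Pf4 from -0.0094 to 0.14, Cd68 from -0.055 to 0.12, Lyve1 (1453128_at) from -0.18 to 0.26, Ctsb (1417492_at) from -0.17 to 0.069, Aif1 from -0.071 to 0.057, Ptprc from -0.064 to 0.12, Ctsb (1417491_at) from -0.10 to 0.091, Spi1 from -0.00015 to 0.079, Lyve1 (1429379_at) from -0.045 to 0.32. Dim signals limit Siglech, Itgam, Trem2 and Cd14, which were below the filter.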

Other observations

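The mast cell genes Cpa3 and Cma1 were brightest on mutant arrays 2 and 3. Cpa3, the carboxypeptidase of mast cell granules, read 16.5, 49.2 and 49.6 in the mutant and 12.02, 15.8 and 20.2 in the wild type (log2 difference 0.70, limma adjusted p = 0.293). Cma1, a mast cell chymase, read 15.9, 31.0 and 29.2 against 8.52, 14.1 and 21.0 (0.44, limma adjusted p = 0.392). Of these arrays, only array 3 carried muscle signal. The source of the mast cell signal was not tested. The stem cell factor receptor Kit, which neurons express as well, differed by -0.02. Of the 3 mast cell genes above the filter, 2 read above 0.

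Granulocyte genes were dim, with 2 of 9 above the filter. S100a8, a calcium-binding protein of neutrophils and monocytes, read 13, 18.2 and 29.4 in the mutant and 13.3, 16.2 and 9.29 in the wild type (0.30). Plac8 differed by 0.11. Ltf, lactoferrin of neutrophil granules, was below the filter at 17.9, 14.0 and 14.9 against 6.98, 5.63 and 1.44. It was higher in 3 of 3 mutant arrays and was singled out after its values were seen. The erythroid gene Alas2, for haem synthesis, read 244, 69.6 and 79.0 in the mutant and 181, 126 and 146 in the wild type (-0.37), and embryonic globin Hbb-y differed by -0.36. Alas2 was thus highest on mutant array 1, where the mast cell genes were lowest among the mutants.

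Among markers of other brain cells, the water channel gene Aqp4 differed by 0.42 and Gfap by 0.27, with 5 of 5 astrocyte and radial glia genes above 0 and 0 past the threshold. Neuronal genes had a median of 0.03, with 2 above 0 (Snap25 at 0.12 and Stmn2 at 0.09) and 2 below 0 (Syt1 at -0.04 and Tubb3 at -0.05). Of 6 endothelial genes, 4 read below 0, led by Cldn5 (-0.43) and Kdr (-0.41). Of 5 meningeal fibroblast genes all read above 0, led by Col1a1 (0.26) and Col1a2 (0.17), where 48.3% of all genes did. That count fell to 3 when wild-type array 3 was dropped, and also to 3 when mutant array 1 was. With array 3 of both groups dropped, 2 of 5 read above 0 and the median was -0.004. Mutant array 2 was the lowest of all arrays in Dcn and Lum. The muscle genes above the filter were Acta1 (1.16) and Myh8 (0.99), both far the highest on mutant array 3, and the pituitary genes were Gh (-1.21) and Pomc (-0.53), both highest on wild-type array 3. None of these genes passed the threshold, where the lowest limma adjusted p was that of Cldn5 (0.0622), but 1 endothelial gene did with an offset of 1 (0.0468) and 1 with the filter at the 60th percentile (0.0443).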
